A study of Mus musculus with 8 samples.

Results

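The genes described here decide whether a lymphocyte leaves a tissue or stays in it. They are the sphingosine 1-phosphate (S1P) receptor genes S1pr1, S1pr2, S1pr3 and S1pr4, the S1PR1 antagonist Cd69, the transcription factor gene Klf2, the oxysterol receptor gene Gpr183, the selectin ligand gene Selplg and the hyaluronan receptor gene Cd44. They were taken by gene symbol from the platform annotation, for their known role, with earlier results of these data known. All 9 were measured, by 10 probe sets, among 22180 named genes, and none was filtered out. Selplg had 2 probe sets, of which the one with the higher mean over all arrays was used.

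The cells were B-1a cells, innate-like B cells that maintain themselves in the body cavities, sorted from peritoneal lavage of mice aged 5 weeks. Mutant mice, called KO, were CD19cre/+ PTIPflox/flox, and control mice were CD19cre/+ PTIP+/+, so that both genotypes carried the Cre allele, which is active in B lineage cells. The 29 KO and 22 control mice were divided into 4 samples per genotype, each a pool of mice hybridised to 1 array. PTIP, encoded by Paxip1, belongs to histone H3K4 methyltransferase complexes, and the comparison asks which transcripts depend on it in B-1a cells. With 8 arrays, precision is limited throughout.

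Lymphocytes follow S1P, which is abundant in blood and lymph and scarce inside tissues. S1PR1 reads this gradient and drives exit, which for mouse peritoneal B cells also depends on S1P, while CD69 binds S1PR1 and removes it from the cell surface. KLF2 activates S1pr1 in lymphocytes, and GPR183 draws B cells towards oxysterols made by stromal cells.

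Values are log2 intensities after RMA, the authors' background correction, normalization and probe set summary, and a difference is KO minus control on that scale. A gene is described as called when its Benjamini-Hochberg adjusted p in limma, over all 22180 genes, was under 0.05. Paxip1 itself was at 4.38 ± 0.54 in KO and 7.05 ± 0.13 in control (SD, n = 4 pools each). Pan-B cell markers were present in both groups, with means over 12 measured markers of 9.95 to 10.2 in KO pools and 10.1 to 10.2 in control pools. Differences were negative for 8 of the 12, and 1 was called: Cd22 differed by -0.59 (adjusted p = 0.0170 in limma). Cd5, which defines B-1a cells among B cells, was at 7.48 ± 0.19 in KO and 7.44 ± 0.15 in control (SD, n = 4 pools each). By pool it was at 7.71, 7.50, 7.26 and 7.44 in KO pools 1 to 4, against 7.63, 7.26, 7.39 and 7.46 in control pools 1 to 4. Of 13 measured B-1a markers 1 rose and 5 fell, against 1.49% and 2.1% of all genes. Differences were negative for 10 of the 13, with a median of -0.38. The mean of the 13 was 7.20 to 7.31 in KO pools and 7.48 to 7.68 in control pools. Of 8 measured markers of follicular and other B-2 cells, which also express S1pr1 and Gpr183, 3 rose and 1 fell, and their mean was 6.36 to 6.47 in KO pools and 5.81 to 6.02 in control pools. Markers of T cells differed between pools: over 16 T cell markers the pools averaged 7.07, 6.82, 5.16 and 5.67 in KO (numbers 1 to 4), against 5.45, 5.50, 4.87 and 4.62 in control pools 1 to 4. The difference was positive for 15 of the 16, and limma called 0 of them, with Gata3 nearest at adjusted p = 0.0501 and 10 at an unadjusted p under 0.05. The mean of 12 NK cell markers ran from 4.28 to 5.44 in KO pools and from 3.58 to 4.37 in control pools, and Klrb1c and Klrd1 were called higher in KO. T and NK cells also express S1pr1, Klf2, Selplg, Cd44 and Cd69, and T cells also express Cd5. The part of T cells in the Cd5 values was not tested. For macrophages the mean of 12 markers was 4.34 to 4.73 in KO and 4.23 to 5.03 in control. Limma called 0 of the 12, with 2 at an unadjusted p under 0.05: Adgre1 differed by -0.76 and Marco by 0.33. In pooled cells, a smaller number of cells of a type and less RNA per cell cannot be told apart.

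Among the 9 genes 1 rose and 2 fell: Cd69 was 3.04-fold higher in KO, Gpr183 was 1.92-fold lower, and S1pr3, whose signal was near the bottom of the scale, was 0.53 lower in log2. The S1pr3 call was lost in 5 of 18 alternative fits. Over all genes 797 were called, or 3.59%, of which 1.49% were higher and 2.1% lower in KO. In 6 of the 9, which are these 3 with S1pr1, Selplg and Cd44, no KO pool reached into the range of the control pools, which held for 10.5% of all genes. Without overlap, 4 of the 9 were lower and 2 of the 9 higher in KO, against 5.09% and 5.41% of all genes. The differences were negative for 7 of the 9 genes and for 45.4% of all genes, with a median of -0.21 for the 9 and 0.02 over all genes. The plot of values by pool shows every measurement.

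**Figure D1:**
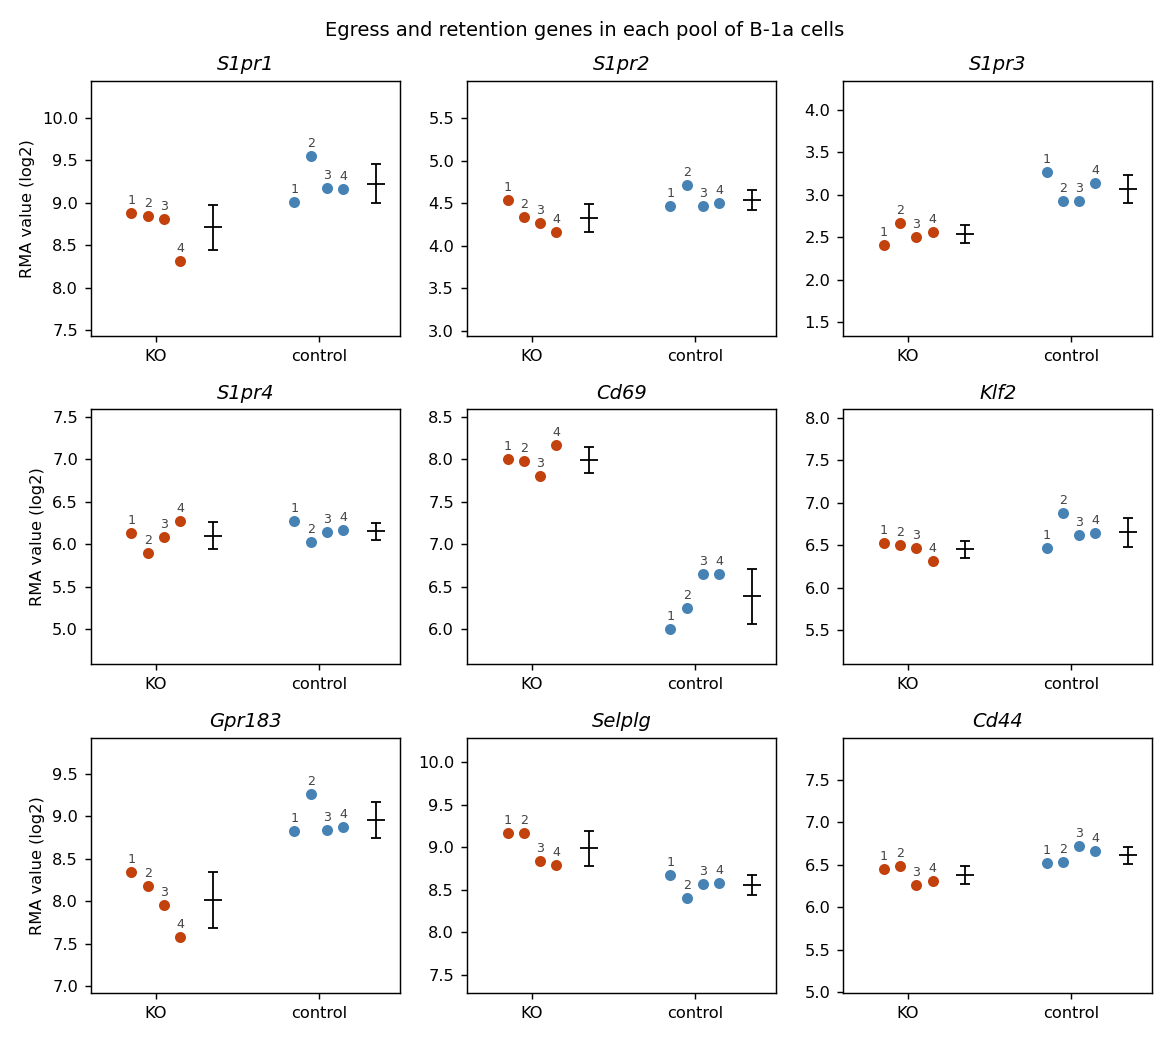
Log2 RMA values (vertical axes, each spanning the same number of log2 units) of the 9 genes in KO pools (left, orange) and control pools (right, blue), numbered by replicate, with the mean and SD of 4 pools as bars. Cd69 lay above 7.80 in every KO pool and below 6.66 in every control pool, whereas the S1pr4 and Klf2 values of KO and control overlapped.

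Cd69, an early activation antigen of lymphocytes that holds them in tissue, changed most. It was at 8.00, 7.98, 7.80 and 8.17 in KO pools 1 to 4, against 6.00, 6.25, 6.65 and 6.66 in control pools 1 to 4. All KO pools were high, and the gap between the lowest KO pool and the highest control pool was 1.15, wider than the range within KO (0.37) or within control (0.66). The difference was 1.60 (SE 0.15, 95% interval 1.27 to 1.93, adjusted p = 0.000192 in limma), which ranked 41st by p among all genes. Its call held in all 19 alternative fits and its difference there ran from 1.47 to 1.70. The Cd69 difference was 1.70 after adjustment for the T cell marker mean of each array and 1.60 without KO pools 1 and 2, where that mean was highest.

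Cd69 is induced together with immediate early genes when lymphocytes are stimulated or handled. Of 19 measured immediate early and activation genes, only Il2ra, the alpha chain of the IL-2 receptor, was called, against 3.59% of all genes. An unadjusted p under 0.05 in limma was found for 5 of the 19, against 15.3% of all genes, and the list median was 0.05. The part of stimulation or handling in the Cd69 values was not tested. Il2ra was 0.75 higher (SE 0.18, adjusted p = 0.0457), with 7.44 ± 0.25 in KO and 6.69 ± 0.38 in control (SD, n = 4 pools each), and its groups overlapped. Omission of KO pool 2, 3 or 4, or of control pool 1, 3 or 4, ended its call (adjusted p up to 0.123). Jund, a subunit of the AP-1 transcription factor, differed by 0.04 and the growth regulator Myc by -0.19. Next to Il2ra, the smallest p belonged to the orphan nuclear receptor gene Nr4a2, which differed by 0.31 without a call.

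S1pr1, the exit receptor that CD69 antagonises, was lower in every KO pool than in any control pool but was not called. It was at 8.88, 8.85, 8.81 and 8.32 in KO pools 1 to 4, against 9.01, 9.55, 9.18 and 9.16 in control pools 1 to 4. The gap between the groups was 0.13, smaller than the range within either group (0.56 in KO and 0.54 in control). The difference was -0.51 (SE 0.15, 95% interval -0.83 to -0.19, adjusted p = 0.0967 in limma). Over the 70 ways to split the arrays, a two-sided exact permutation test returned p = 0.0286, its smallest possible value, as it did for each of the 6 genes whose groups did not overlap. S1pr1 was called in 1 of 19 alternatives, an intensity trend with a robust prior (adjusted p = 0.0487). Adjusted for the T cell marker mean its difference was -0.66, and without KO pools 1 and 2 it was also -0.66 (adjusted p = 0.148 and 0.143).

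The other S1P receptor genes ranged from a called fall to no detectable difference. S1pr3, which serves migration of marginal zone B cells in mice, was at 2.41, 2.67, 2.50 and 2.56 in KO pools 1 to 4, against 3.26, 2.92, 2.93 and 3.14 in control pools 1 to 4. The groups did not overlap, but the KO mean of 2.54 lay under the lower quartile of gene levels on these arrays (2.86) and the control mean of 3.06 just over it. RMA values flatten out at such levels, and whether S1pr3 was detected above background was not tested. Its difference was -0.53 (SE 0.10, 95% interval -0.75 to -0.30, adjusted p = 0.0165), and the call was lost without KO pool 1 (adjusted p = 0.0510) or control pool 4 (0.0556). Adjustment for the T cell marker mean ended it too (adjusted p = 0.124), as did omission of KO pools 1 and 2 (0.0964), while the difference stayed at -0.53 in both.

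S1pr2, which couples to G12/13 proteins and confines germinal centre B cells, was at 4.54, 4.34, 4.27 and 4.16 in KO pools 1 to 4, against 4.47, 4.72, 4.47 and 4.51 in control pools 1 to 4. KO pool 1 lay among the control pools, and the difference of -0.21 was not called (95% interval -0.43 to 0.01, adjusted p = 0.362 in limma). S1pr4, a receptor of lymphocytes and other blood cells, was at 6.14, 5.89, 6.09 and 6.28 in KO pools 1 to 4, against 6.28, 6.03, 6.14 and 6.17 in control pools 1 to 4. Its groups overlapped throughout, and the difference of -0.05 had a 95% interval from -0.27 to 0.16 (adjusted p = 0.866). Differences within these bounds remained compatible with the 8 arrays. The sign of the S1pr4 difference turned without KO pool 2 (0.015), without KO pools 1 and 2 (0.030) and after adjustment for the T cell marker mean (0.012).

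Klf2, the transcriptional activator of S1pr1, was at 6.53, 6.50, 6.47 and 6.31 in KO pools 1 to 4, against 6.46, 6.88, 6.62 and 6.64 in control pools 1 to 4. Control pool 1 lay among the KO pools, and the difference of -0.20 was not called (95% interval -0.42 to 0.03, adjusted p = 0.396 in limma, exact permutation p = 0.114). It was negative in all 19 alternatives, which ran from -0.27 to -0.12, and was called in 0 of them.

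Gpr183, also known as EBI2, positions B cells within lymphoid organs. It was at 8.34, 8.18, 7.96 and 7.58 in KO pools 1 to 4, against 8.83, 9.27, 8.84 and 8.88 in control pools 1 to 4. All KO pools were low, with a gap of 0.49 below the lowest control pool. The difference was -0.94 (SE 0.16, 95% interval -1.29 to -0.59, adjusted p = 0.00869 in limma). It was larger, at -1.23, after adjustment for the T cell marker mean and at -1.19 without KO pools 1 and 2 (adjusted p = 0.00692 and 0.0110). The call held in 18 of 19 alternatives, each single pool left out among them, and was lost without moderation of the variance (adjusted p = 0.0976).

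The upstream sequences of the genes that fell, Gpr183 and S1pr3, are shown to compare their composition. Each is the 250 bases before the RefSeq transcription start in GRCm38.p6, 5′ to 3′ on the gene's strand, at chr14:121965194-121965443 (minus strand) for Gpr183 and chr13:51408368-51408617 (plus strand) for S1pr3. Capitals mark matches to the KLF core CCACCC on either strand.
Gpr183: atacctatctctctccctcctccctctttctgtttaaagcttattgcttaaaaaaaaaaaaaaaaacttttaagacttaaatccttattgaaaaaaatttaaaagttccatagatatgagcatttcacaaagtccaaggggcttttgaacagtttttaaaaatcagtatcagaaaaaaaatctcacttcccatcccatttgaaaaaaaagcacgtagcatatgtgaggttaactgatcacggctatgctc
S1pr3: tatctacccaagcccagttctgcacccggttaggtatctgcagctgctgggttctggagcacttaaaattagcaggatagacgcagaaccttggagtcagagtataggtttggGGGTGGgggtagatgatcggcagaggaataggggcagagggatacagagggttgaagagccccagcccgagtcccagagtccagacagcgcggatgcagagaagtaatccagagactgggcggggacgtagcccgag
The Gpr183 window was 32.0% G and C with 2 CpG dinucleotides, and the S1pr3 window was 56.4% G and C with 9, against a median of 6 CpG over 27025 promoters. The KLF core was found 137 bases before the S1pr3 start and not in the Gpr183 window. It was found in 27.7% of all promoters and in 3 of the 6 member promoters in the RefSeq table, those of Klf2, S1pr3 and S1pr4. The FOXO motif TGTTTAC, the AP-1 motif TGANTCA and TATAAA were each found in 0 of these 6 on either strand, against 3.09%, 6.87% and 13.0% of all promoters. None of these motifs overlapped another in the windows shown.

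Selplg encodes PSGL-1, the ligand that leukocytes present to selectins. It was at 9.17, 9.16, 8.83 and 8.78 in KO pools 1 to 4, against 8.67, 8.40, 8.57 and 8.58 in control pools 1 to 4. The groups did not overlap, by a gap of 0.11, but the difference of 0.43 was not called (SE 0.11, 95% interval 0.19 to 0.68, adjusted p = 0.0621 in limma). Its other probe set was at 8.48, 8.55, 8.18 and 8.15 in KO pools 1 to 4, against 7.76, 7.78, 7.77 and 7.99 in control pools 1 to 4, a difference of 0.52. The mean of both probe sets was called, at 0.47 (adjusted p = 0.0350). On both probe sets KO pools 1 and 2, which had the highest T cell marker means, were the highest. Without them the difference was 0.26, and adjusted for the T cell marker mean it was also 0.26 (adjusted p = 0.362 and 0.442). The part of T cells in the Selplg values was not tested.

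Cd44, an adhesion receptor for hyaluronan, was at 6.45, 6.48, 6.26 and 6.31 in KO pools 1 to 4, against 6.53, 6.54, 6.73 and 6.66 in control pools 1 to 4. The groups were apart by only 0.04. The difference of -0.23 was not called (95% interval -0.43 to -0.04, adjusted p = 0.221 in limma), nor was it in any of the 19 alternatives, over which it ran from -0.32 to -0.20.

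**Figure D2:**
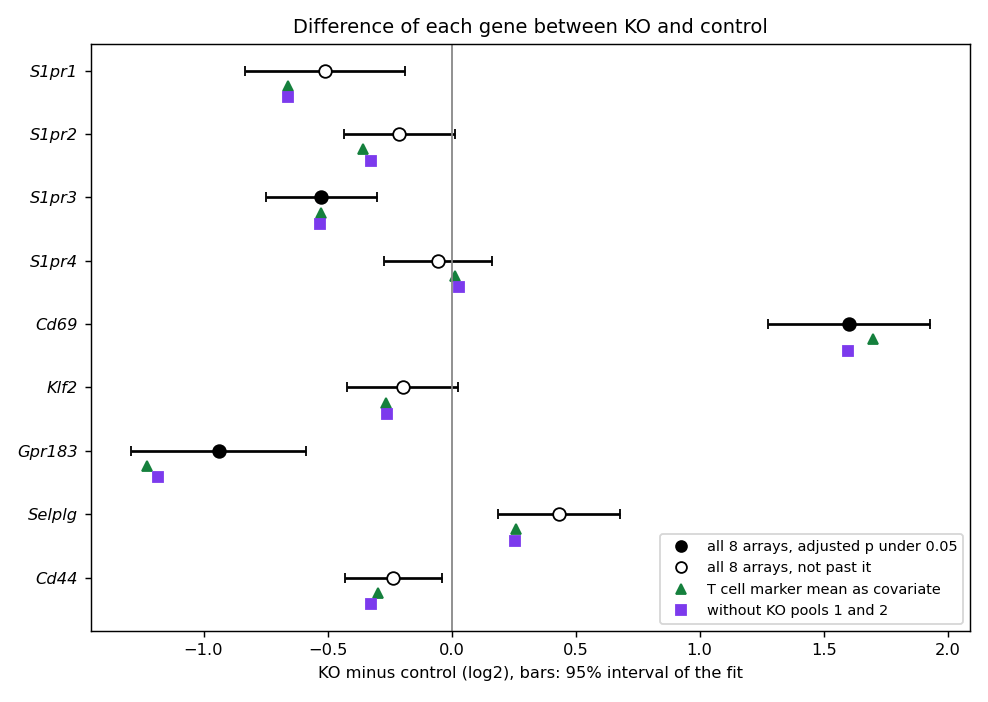
KO minus control on the log2 scale (horizontal axis) for each gene, with circles and 95% intervals from the fit of all 8 arrays, filled where the adjusted p was under 0.05. Triangles give the fit adjusted for the T cell marker mean and squares the fit without KO pools 1 and 2: there Gpr183 was at -1.23 and -1.19, Selplg at 0.26 in both, and Cd69 between 1.60 and 1.70.

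**Figure D3:**
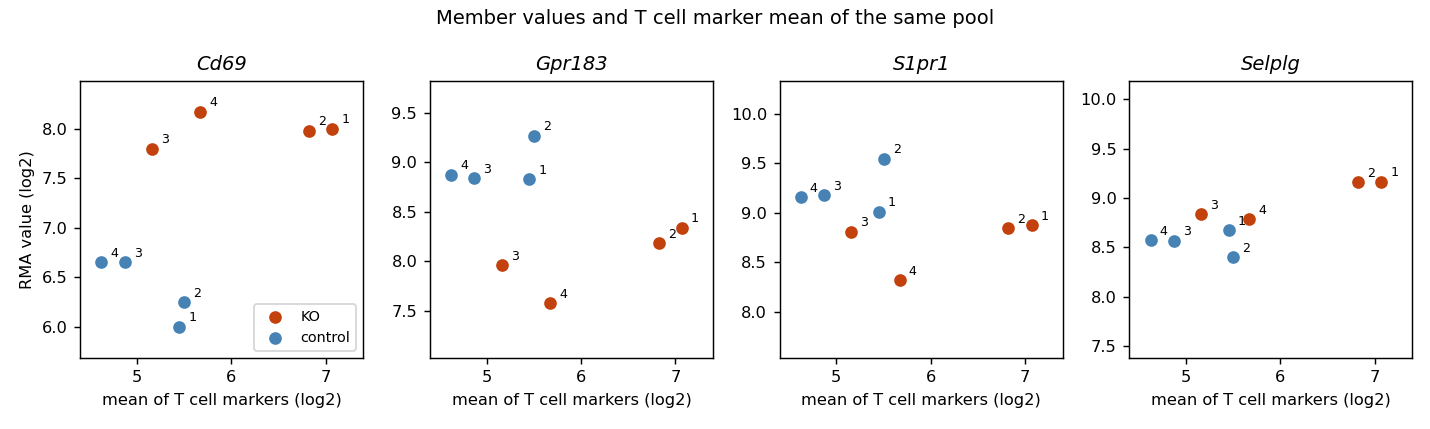
Log2 values of 4 genes (vertical axes) against the mean of 16 T cell markers in the same pool (horizontal axis), KO pools in orange and control pools in blue, numbered by replicate. The T cell marker means of KO pools 3 and 4 were 5.16 and 5.67, below and above those of control pools 1 and 2 (5.45 and 5.50). In KO pools 3 and 4 Cd69 was high and Gpr183 low. Selplg was at 8.83 and 8.78 in KO pools 3 and 4, against 8.67 and 8.40 in control pools 1 and 2. The part of T cells or other cell types in these values was not tested.

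The surrounding pathway genes, 93 without the 9 members, were called in 14.0%, 6 higher and 7 lower in KO, against 3.59% of all genes. These lists were chosen with results of these data known. Of 11 genes that make, export or degrade S1P, 0 rose and 2 fell, against 1.49% and 2.1% of all genes. Spns2, the S1P exporter, fell by 0.71 (SE 0.16, adjusted p = 0.0372), and was at 3.81 ± 0.20 in KO and 4.52 ± 0.34 in control (SD, n = 4 pools each). Sgpl1, the lyase that degrades S1P, fell by 0.37 (SE 0.09, adjusted p = 0.0388). Spns2 was no longer called once one of KO pools 1, 2 and 4 or of control pools 1, 2 and 4 was left out (adjusted p up to 0.106), and Sgpl1 once any pool other than KO pool 4 was (up to 0.102). Asah1, the acid ceramidase that supplies sphingosine, differed by -0.40 without a call. The list of S1P receptor coupling and trafficking had 15 measured genes, the receptor gene S1pr5 among them. Of these, 0 were called in limma, and 2 had an unadjusted p under 0.05: the G protein subunit Gna12 differed by 0.31 and the arrestin Arrb1 by -0.23. S1pr5 was at 4.49 in KO and 4.38 in control, a difference of 0.11 without a call. Rac2, a GTPase of cell migration, differed by -0.05.

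The enzymes that make or degrade the GPR183 ligand were dim. None of the 4 was called in limma, and 1 had an unadjusted p under 0.05. Ch25h, which makes its precursor, was at 3.06 ± 0.07 in KO and 2.79 ± 0.21 in control, and Hsd3b7, which degrades the ligand, was at 3.22 ± 0.14 in KO and 3.02 ± 0.08 in control (SD, n = 4 pools each).

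In the FOXO1 and KLF list, 3 of 11 genes rose and 0 fell, against 1.49% and 2.1% of all genes. The list median was 0.23. Klf9, a Krüppel-like factor, was at 5.06, 5.23, 5.10 and 5.20 in KO pools 1 to 4, against 4.29, 4.03, 4.42 and 4.49 in control pools 1 to 4. All KO pools were higher, and the difference of 0.84 (SE 0.11, adjusted p = 0.00160 in limma) was called in all 19 alternatives. Foxo1, which acts upstream of Klf2 in lymphocytes, rose by 0.42 (SE 0.09, adjusted p = 0.0308) and Foxo3 by 0.36 (SE 0.09, adjusted p = 0.0490), but both calls were lost without any 1 of the 8 pools (adjusted p up to 0.0838 and 0.123). Klf3 and Klf13 differed by -0.02 and 0.26 and were not called.

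Of 10 genes for selectins and for the sugars and sulphates that let PSGL-1 bind them, 1 rose and 1 fell. Over all genes 1.49% rose and 2.1% fell. B4galt1, a galactosyltransferase, rose by 0.61 (SE 0.10, adjusted p = 0.00754), and its call held with each single pool left out but was lost after adjustment for the T cell marker mean (adjusted p = 0.0879), without KO pools 1 and 2 (0.0578) and without moderation of the variance (0.0563). The sialyltransferase gene St3gal4 fell by 0.33 (SE 0.08, adjusted p = 0.0439), and its call was lost without any 1 of the 8 pools (up to 0.123). Sele, which encodes E-selectin, differed by 0.40 (adjusted p = 0.0570). Among 11 ligands and cytoskeletal partners of CD44, only Rdx was called: this gene for radixin, which links CD44 to actin, rose by 0.45 (SE 0.09, adjusted p = 0.0204), a call that omission of KO pool 1 or 2, or of control pool 1 or 4, ended (up to 0.0653). Ezr and Msn, which encode ezrin and moesin, differed by 0.10 and -0.03.

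Of 13 genes for homing to the cavities and adhesion, 0 rose and 4 fell, against 1.49% and 2.1% of all genes. The list median was -0.15. Those that fell were the integrin chains Itgam, Itga6 and Itgb1 and the tetraspanin Cd9, a partner of integrins. Itgam and Cd9 were also among the B-1a markers that fell. Itga6, which forms laminin receptors, was at 6.33, 6.27, 6.05 and 6.00 in KO pools 1 to 4, against 6.88, 7.01, 6.78 and 6.82 in control pools 1 to 4, and its call held in all 19 alternatives, as did that of Itgam. Itgb1 was no longer called when KO pool 4 or control pool 2, 3 or 4 was left out (adjusted p up to 0.0659), nor was Cd9 when KO pool 2 or control pool 4 was (up to 0.0675). Itga4, another integrin chain, differed by -0.44 without overlap of its groups but was not called (adjusted p = 0.050004 in limma). Cxcr5, the CXCL13 receptor that brings B cells into body cavities, differed by 0.24 without a call. After adjustment for the T cell marker mean, 3 of the 93 pathway genes were called, namely Klf9, Itga6 and Itgam, and without KO pools 1 and 2, 4 were.

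**Figure D4:**
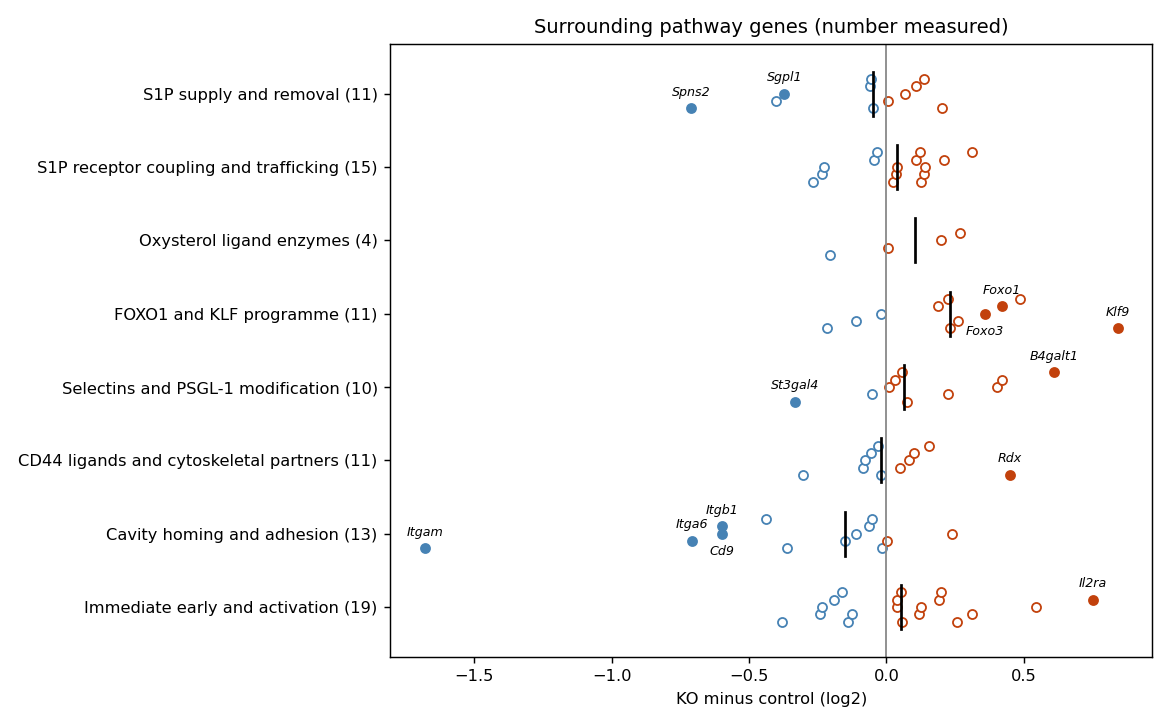
KO minus control on the log2 scale (horizontal axis) for each measured gene of 8 lists (vertical axis, number measured in brackets), orange where positive and blue where negative, filled and named where called, with the list median as a black bar. Calls in the adhesion list lay to the left, between -1.68 for Itgam and -0.60, and those of the FOXO1 and KLF list to the right, up to 0.84 for Klf9.

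The genes most like the called members were found by Pearson's r over the 8 arrays, which fall into 2 genotypes, so that r here is a description that rests largely on the genotype difference. For Cd69 they were Uprt and Nedd4 (r = 0.99 each) and Gpr171 (r = 0.98), which were 0.47, 0.77 and 1.11 higher in KO and all called. For Gpr183 they were Resf1, Fbf1 and Itga6 (r = 0.98 each), of which only Itga6 was called (-0.71), with Resf1 at -0.32 and Fbf1 at -0.26. For S1pr3 they were Pon3 (r = 0.99), Exoc1 (r = 0.99) and Lilrb4a (r = 0.98), of which Pon3 fell by 0.80, Lilrb4a was 4.01-fold lower and Exoc1 was not called (-0.09).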

How the data were processed

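RNA of 8 pools of sorted peritoneal B-1a cells, 4 KO and 4 control, was measured on 1 array each. The authors deposited log2 values of 41345 probe sets, made with RMA and R 3.2.2 per the submitters' processing notes, which name neither package nor summarisation level. Such values are relative to the other genes of an array and compress near background. Of 25335 probe sets in the platform annotation, 23521 carried a single gene symbol; 1814 carried several and stayed unnamed, like the 16010 of the table that it does not list. The 1082 genes with several probe sets were represented by the brightest on average, for 22180 genes in all.

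KO was compared with control in R 4.3.3 by limma 3.58.1 (functions lmFit and eBayes, two-sided, Benjamini-Hochberg over all 22180 genes, threshold 0.05), and single members also by an exact permutation test over 70 assignments. The fit was tested on simulated data. No low values were filtered. The members and lists were chosen with earlier results of these data known. Members, called genes of each list and at most 3 others of it with the smallest p or the highest level are named, with S1pr5 and the 3 genes most like each called member. Cd74, Grk2, Hyal1 and Spp1 of the pathway lists were not analysed here. That the replicates are separate pools of mice comes from the labels. Alternatives changed the probe set, genes tested, scaling, variance prior, array weights, a replicate block, the T cell marker covariate and the pools used.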

Additional observations from a re-analysis of the deposited data

Results flagged for a closer look

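In groups of 4 pools, a pool was marked where its gap to the nearest other, divided by the range, exceeded Dixon's critical value. Of 64 groups checked 7 were marked, and chance marks about 1 in 20. S1pr1 was low in KO pool 4, at 8.32 with the next at 8.81 (ratio 0.882). Control pool 2 was high for Gpr183, at 9.27 with the next at 8.88 (0.897), for S1pr2, at 4.72 with the next at 4.51 (0.839), and for B4galt1, at 7.15 with the next at 6.88 (0.894). The other Selplg probe set was high in control pool 4, at 7.99 with the next at 7.78 (0.940). Itgam was high in control pool 1, at 7.70 (0.848), and Cd9 was low in KO pool 2, at 5.96 (0.955).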

How the results depend on the processing

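Of the 170 differences of the 9 genes under 19 alternatives, 3 changed sign, all of S1pr4: 0.030 without KO pools 1 and 2, 0.012 after adjustment for the T cell marker mean, and 0.015 without KO pool 2, with a range from -0.11 to 0.015 over single pools left out. In 6 a call was lost (S1pr3 and Gpr183) and in 5 one was gained (S1pr1 and Selplg). Of the 9 genes, 5 were called with an intensity trend and robust prior, 1 without moderation of the variance, and 2 to 3 with single pools left out. Over all genes 1006 were called with the intensity trend and robust prior, 303 without moderation and 304 after adjustment for the T cell marker mean. Without KO pools 1 and 2, 320 were called, and with single pools left out 479 to 758 were. Of the 93 pathway genes, 4 were called with every probe set tested, 4 without moderation, 7 with the replicate block, 3 with the covariate, 4 without KO pools 1 and 2, and 4 to 8 with single pools left out. The cause of these changes in count was not tested.

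The replicate numbers are not stated to pair the pools: deviations from the group means correlated at 0.11, 0.04, 0.04 and 0.04 for numbers 1 to 4, and pools 3 and 4 of KO did not correlate best with their own number. With the replicate block 666 genes were called, and 3 of the 9 members.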

Other observations

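Krt8 and Krt18, keratins in the list of mesothelial and stromal markers, were the only 2 of its 10 genes called, at 5.09 ± 0.07 in KO and 6.12 ± 0.30 in control for Krt8 and at 4.84 ± 0.26 in KO and 5.92 ± 0.15 in control for Krt18 (SD, n = 4 pools each; adjusted p = 0.00196 and 0.00118 in limma). Limma called 0 of 11 mast cell and granulocyte markers, with 1 at an unadjusted p under 0.05; the mast cell protease Cpa3 was at 4.88 ± 0.42 in KO and 4.75 ± 1.51 in control (SD, n = 4 pools each).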
